A study of Homo sapiens with 6 samples.

Results

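The genes described here encode the ubiquitin-specific peptidases (USP), the OTU deubiquitinases named OTUD and the ubiquitin carboxyl-terminal hydrolases named UCHL. Members were the rows of the authors' deposited table whose symbol starts with USP and a number, with OTUD or with UCHL and a number. The ISG15 protease USP18 was left out by the rule. This gave 33 of the 7150 listed genes: 28 USP genes, 4 OTUD genes and 1 UCHL gene. RNA came from MDA-MB-231, a human triple-negative breast cancer cell line of mesenchymal shape, labelled wild type. The 3 shikonin libraries came from cells given 0.5 µM shikonin, a plant naphthoquinone, for 24 h, and the 3 control libraries from cells labelled as untreated. The labels write the dose unit with a lower-case m, which is read as micromolar, and no vehicle is named. Separate cultures are not stated in the labels, and the spread behind each p-value may therefore be technical only.

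Deubiquitinases cut ubiquitin off proteins or trim ubiquitin chains, and so oppose the ubiquitin ligases that mark proteins for the proteasome, for endosomal sorting or for signalling. The USP, OTU and UCH families are cysteine proteases, and most members are known from a few substrates, such as MDM2 for USP7 or histone H2B for USP22. In breast cancer cells the family is studied chiefly because several members hold back the breakdown of oncoproteins and of survival factors.

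The deposited file holds 0 columns of per-sample values, so no value per library can be shown and depth is unknown. Each gene has a mean normalized count over all 6 libraries, a log2 fold change with its standard error, and a Wald test p adjusted over all genes tested. The header names no numerator. Genes marked "up" by the authors all have positive fold changes, taken here as higher in shikonin. Levels given per group below are implied means, solved from the overall mean and the fold on the assumption that both groups weigh equally. They are on a normalized count scale that is not corrected for gene length. The file lists a gene only where the adjusted p is below 0.05 and the fold change above 1.5, so every member passed the authors' test and a gene that is not listed has no value here. In bulk RNA, fewer cells and less RNA per cell cannot be told apart. Of 8 markers of the mesenchymal line 5 were listed, with VIM, CAV1 and SPARC higher and ZEB1 and FN1 lower, and summed implied means of 94852 in shikonin and 61766 in control. VIM (vimentin) had a mean of 64429 normalized counts in the authors' deposited table. Of 10 luminal epithelial markers 6 were listed, 5 higher and 1 lower, with summed implied means of 61049 in shikonin and 24429 in control. Leukocyte markers had 2 of 5 listed and endothelial markers 1 of 3, all higher, with sums of 1843 and 284 in shikonin and 409 and 69.3 in control. Fibroblast markers had 0 of 5 listed. Of all genes tested 50.2% were listed, and 25.5% were listed as higher. Single genes carried some sums: in shikonin CD14 gave 1807 of the leukocyte sum and VIM 81887 of the mesenchymal sum. The folds of SPARC, the leukocyte marker LYZ and the luminal marker FOXA1 rest on few reads, with means of 21.1, 20.1 and 35.4 normalized counts. An unlisted marker, such as the leukocyte gene PTPRC, has no level here. The part of these markers in the results below was not tested.

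Shikonin-treated cells had less RNA of most deubiquitinase genes in the file. Of the 33 members 30 were lower and 3 higher in shikonin in the authors' deposited table, which puts 90.9% on the lower side, against 49.2% of all listed genes. The median log2 fold change of the members was -1.03, against 0.60 over all listed genes. Neither comparison is matched for transcript length, which is taken up below. The largest falls were in USP34, USP37, OTUD4 and USP13, and the 3 members that rose were USP2, USP39 and UCHL3. The summed implied means of the members came to 21587 normalized counts in shikonin and 45772 in control, or 47.2% of the control sum. USP22 and USP9X made up 23.9% of that sum in shikonin and 31.9% in control.

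The members at the ends of this range are shown by the 250 bases before their start site, as given by RefSeq on GRCh38.p14, to let the promoters of risers and fallers be read side by side. They are the 3 that rose and the 2 of the most reduced that have an entry, each at the most upstream start site in the RefSeq table, 5′ to 3′ on the strand of the gene. USP37 has no entry and is named only. Capitals mark GGGCGG, the GC box bound by SP1-type factors, on either strand.
USP2 (chr11:119364209-119364458, minus strand): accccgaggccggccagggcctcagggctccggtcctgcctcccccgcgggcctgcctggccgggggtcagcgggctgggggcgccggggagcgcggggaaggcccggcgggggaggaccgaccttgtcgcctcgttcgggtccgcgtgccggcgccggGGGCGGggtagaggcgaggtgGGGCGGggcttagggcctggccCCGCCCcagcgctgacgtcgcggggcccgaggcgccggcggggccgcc
USP39 (chr2:85602611-85602860, plus strand): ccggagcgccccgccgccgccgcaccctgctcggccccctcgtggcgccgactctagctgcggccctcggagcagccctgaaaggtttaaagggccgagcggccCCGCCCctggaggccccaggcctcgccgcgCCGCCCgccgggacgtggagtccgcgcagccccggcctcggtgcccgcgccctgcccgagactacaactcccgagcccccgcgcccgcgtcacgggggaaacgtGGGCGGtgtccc
UCHL3 (chr13:75549252-75549501, plus strand): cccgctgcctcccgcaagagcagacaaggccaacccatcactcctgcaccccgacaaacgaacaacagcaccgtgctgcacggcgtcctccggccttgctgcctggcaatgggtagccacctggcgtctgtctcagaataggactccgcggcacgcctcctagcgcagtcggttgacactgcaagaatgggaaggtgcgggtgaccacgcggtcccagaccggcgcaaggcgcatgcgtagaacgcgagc
USP34 (chr2:61471088-61471337, minus strand): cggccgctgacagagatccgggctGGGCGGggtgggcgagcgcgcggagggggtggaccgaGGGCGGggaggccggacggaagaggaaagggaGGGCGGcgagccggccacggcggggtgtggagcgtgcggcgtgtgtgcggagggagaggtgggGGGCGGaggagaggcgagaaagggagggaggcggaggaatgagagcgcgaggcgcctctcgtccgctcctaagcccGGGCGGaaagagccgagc
OTUD4 (chr4:145180590-145180839, minus strand): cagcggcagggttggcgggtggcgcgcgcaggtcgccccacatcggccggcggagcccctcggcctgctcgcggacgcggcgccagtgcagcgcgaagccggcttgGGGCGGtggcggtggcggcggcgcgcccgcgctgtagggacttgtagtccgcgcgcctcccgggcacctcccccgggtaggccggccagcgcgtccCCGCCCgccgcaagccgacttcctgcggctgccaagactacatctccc

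All 5 windows are rich in G and C, with 64.8% to 83.2% GC. The windows of USP2 and USP39 hold 3 GC boxes each and that of UCHL3 holds 0, against 5 in USP34 and 2 in OTUD4. Among the 27 members with an entry, 22 windows (81.5%) hold a GC box, against 42.5% of all 34943 windows in the table. Median GC was 71.2% in the member windows and 58% in all windows. Motif shares given here are not matched for GC content. Members enter by their most upstream start site only, while all windows may include several start sites of a gene. The windows are not limited to listed genes, and no share over listed genes was computed. Whether these shares are particular to the members was not tested. The CCAAT box (CCAAT) stands in 14.8% of member windows against 32.0% of all, and the E-box CACGTG in 3.70% against 6.32%. The pattern TGACNNNGC, the core of the antioxidant response element, stands in 14.8% against 10.9%, with 2 matches in UCHL3 and 1 in USP2. TGAGTCA, TGACGTCA and the heat shock pattern GAANNTTC stand in 0 of the 27 member windows, against 4.22%, 1.63% and 5.80% of all windows. All motifs were searched on both strands, and those named here may overlap one another. A match is a description of the letters and not of a bound site. For 25 of the 27 members the window's start site lies within 1000 nt of the gene start in GENCODE 29. The exceptions are USP2, at 17518 nt, and USP32, at 30337 nt, both of which are counted above.

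Of 63 human genes named for these families, counting USP17L2 alone of its multicopy group, 33 were listed (52.4%). That share is near the 50.2% of about 14254 genes tested that were listed in all. The bases differ, since the 63 may include genes that were not tested, so nothing is concluded about the family from these shares. By direction, 30 of the 63 (47.6%) were listed as lower, against 24.7% of all genes tested, and 3 (4.76%) as higher, against 25.5%. These shares are not matched for transcript length. The longer 5 of 10 length classes hold 29 of the 33 members, and 85.5% of listed protein-coding genes in them were lower. How many of the 63 were tested is not known from the file, and several are testis genes, such as USP26 and USP29. By family, 26 of 28 listed USP genes were lower, as were all 4 listed OTUD genes. The 1 listed UCHL gene was higher. Among the 30 genes of the families that were not listed were USP14, UCHL5, USP5, USP1, USP4, USP11, USP15 and OTUD5.

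**Figure D1:**
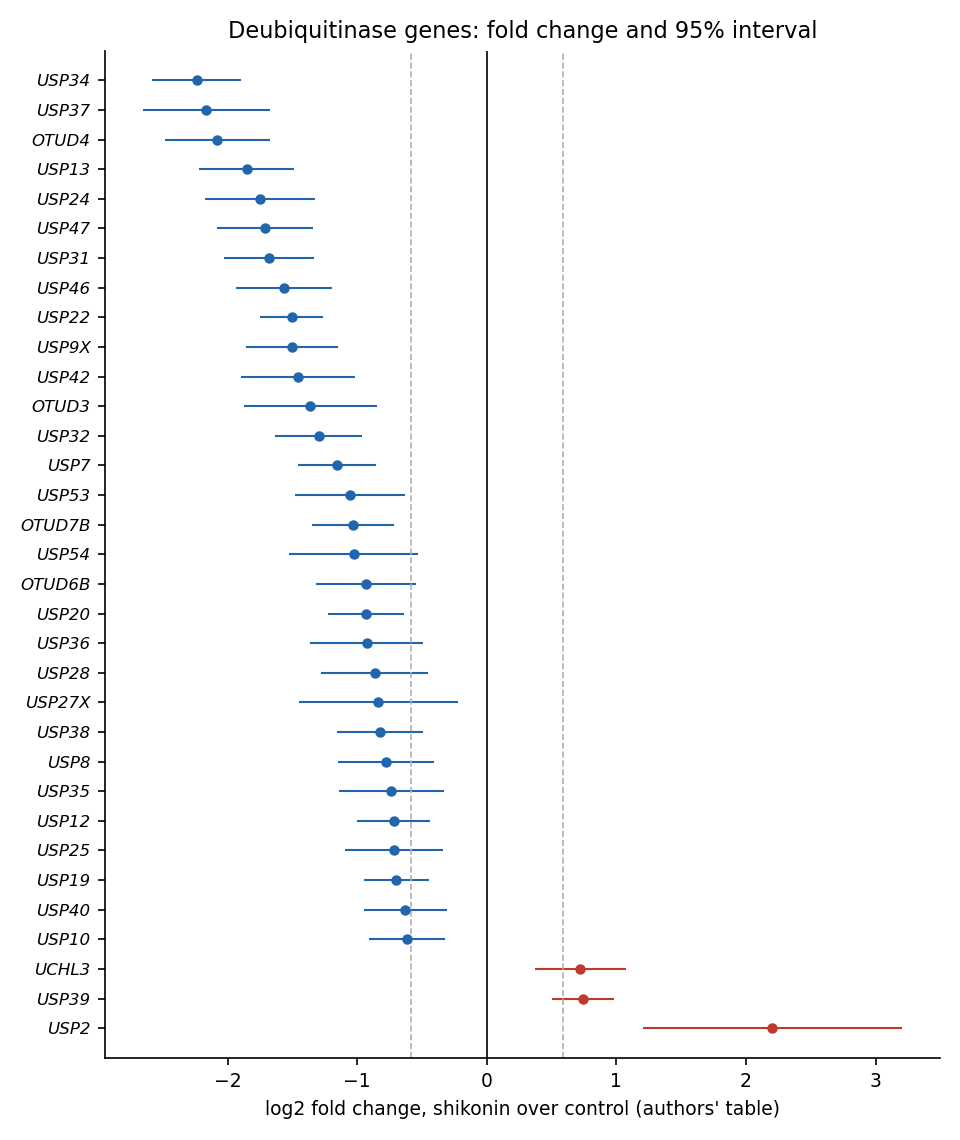
Log2 fold change of the 33 deubiquitinase genes, shikonin over control, from the authors' deposited table (x axis), one gene per row. Points are the listed values, bars their 95% normal intervals, and dashed lines the 1.5-fold threshold. Blue genes are lower and red genes higher in shikonin. USP34 lies lowest at -2.24, and USP2 highest at 2.20 with the widest bar.

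Size differed widely within the 30 that fell. By the authors' deposited table, members numbering 17 were at least 2-fold lower, which is 51.5% of the members against 29.2% of all listed genes. The 95% interval lay wholly beyond a 2-fold fall for 11 members, 33.3% against 14.5% of listed genes. These shares also count the genes that rose. Among genes that fell, 17 of 30 members were at least 2-fold lower, against 2087 of 3520 listed genes. The interval lay wholly beyond a 2-fold fall for 11 of these 30, against 1034 of 3520. For 15 members the interval took in the 1.5-fold threshold itself. The members nearest that threshold were USP10, USP40 and USP19 on the lower side and UCHL3 on the higher side. Standard errors ran from 0.12 to 0.51 in the authors' deposited table, the largest belonging to USP2, the member with the fewest normalized counts. Mean count and fold change showed little relation over the 33 genes (Spearman's rho -0.04, a description over genes that share libraries).

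The members are taken below in groups by role, though for some of them no role of that kind is given here. With 30 of 33 members lower, a shared direction within a group says little about that group. Group totals count all genes placed in a group, tested or not, while the 50.2% beside them is over genes tested. Of 6 genes grouped as proteasome-bound or free-chain enzymes and their relatives 2 were listed, against 50.2% of all genes tested. These 2, both placed here as relatives, went opposite ways. USP13, a relative of USP5 known to stabilise the autophagy protein Beclin-1, had an implied mean of 302 normalized counts in shikonin and 1094 in control. The authors' deposited table gives a log2 fold change of -1.85 ± 0.19 (standard error), a 3.62-fold fall (95% interval 2.81 to 4.66), with an adjusted p of 4.92e-22 by their DESeq2 test. USP13 lies on chromosome 3 from 179652755 to 179789401 (GRCh38, GENCODE 29). UCHL3, a small hydrolase that also processes the NEDD8 precursor, had an implied mean of 1164 in shikonin and 706 in control. It was 1.65-fold higher (1.29 to 2.11; DESeq2 adjusted p = 1.56e-04) in the authors' deposited table and lies on chromosome 13 from 75549480 to 75606020. USP5, the sequence relative of USP13 that takes apart unanchored chains, and the proteasome-bound USP14 and UCHL5 were not listed.

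Among enzymes that act on histones, 2 of 8 were listed, against 50.2% of all genes tested, and both were lower. USP22 is the catalytic subunit of the deubiquitinase module of the SAGA coactivator complex, which removes ubiquitin from histone H2B. Its implied mean was 3069 normalized counts in shikonin and 8707 in control. It fell 2.84-fold (2.40 to 3.36; DESeq2 adjusted p = 3.97e-32) in the authors' deposited table, where its log2 fold change was -1.50 ± 0.12. USP27X, an intronless relative on chromosome X that can join the same module and is also known to stabilise the transcription factor SNAI1, had implied means of 71.3 and 127 in shikonin and control. Its fall of 1.79-fold (1.17 to 2.74) carried the weakest test of the members in the authors' deposited table, a DESeq2 adjusted p of 0.0139. The intervals of the log2 fold change, -1.75 to -1.26 for USP22 and -1.45 to -0.22 for USP27X, overlap. Of the partners that activate USP22 in the module, ATXN7L3 and ATXN7 fell 1.79-fold and 3.69-fold, while the short adaptor ENY2 was 2.27-fold higher in the authors' deposited table.

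Of the deubiquitinases grouped around p53 and the ubiquitin ligase MDM2 4 of 6 were listed, against 50.2% of all genes tested, 3 lower and 1 higher. USP7, which removes ubiquitin from MDM2, had implied means of 1029 normalized counts in shikonin and 2295 in control. Its fall was 2.23-fold (1.81 to 2.75) in the authors' deposited table. USP42 fell 2.74-fold (2.02 to 3.73), and USP10, which binds the stress granule protein G3BP1, fell 1.53-fold (1.25 to 1.88) in the authors' deposited table. USP2, which acts on MDM2 and cyclin D1 and whose RNA is under circadian control in mouse tissues, went the other way. Its implied mean was 58.0 in shikonin and 12.6 in control, a 4.61-fold rise (2.31 to 9.21; DESeq2 adjusted p = 4.29e-05) in the authors' deposited table. The fold of USP2 rests on few reads, since its mean over all libraries was 35.3 normalized counts in the authors' deposited table. USP2 lies on chromosome 11 from 119355215 to 119381726. MDM2 and its relative MDM4 fell 2.60-fold and 2.05-fold in the authors' deposited table.

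**Figure D2:**
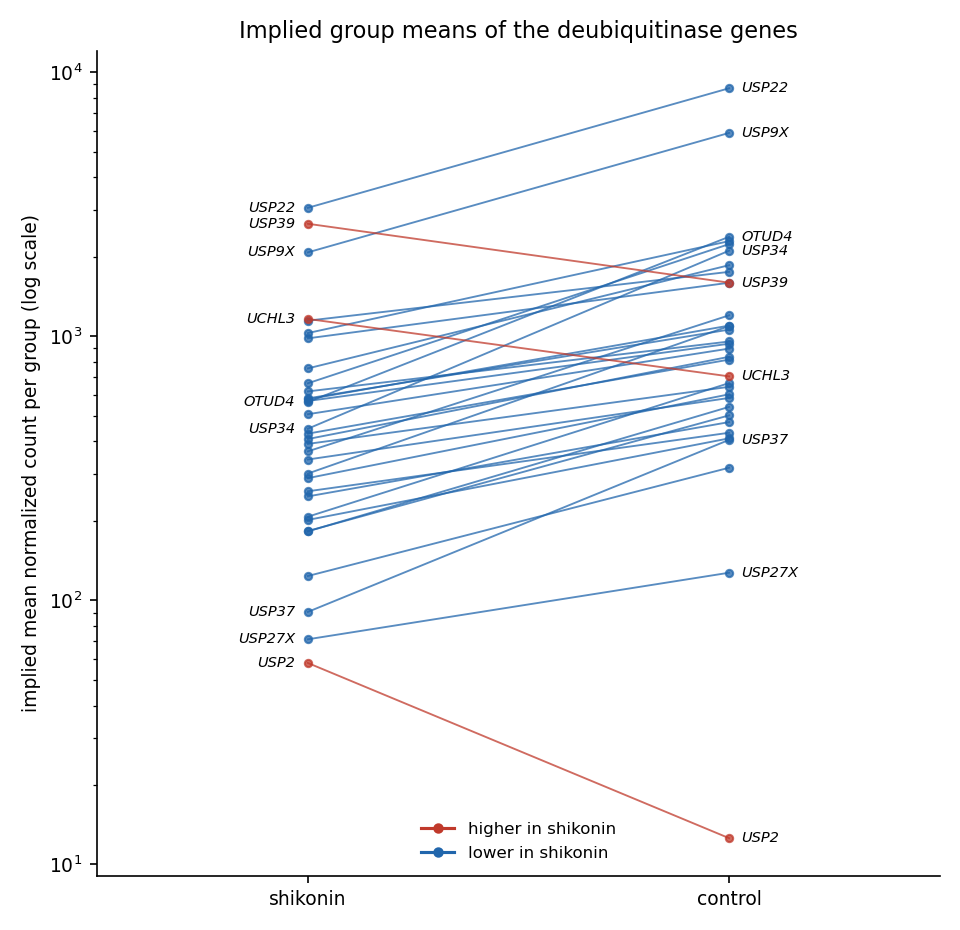
Implied mean normalized count of each of the 33 genes in shikonin (left) and control (right), on a log axis; a line joins the values of 1 gene. Blue lines are genes lower in shikonin and red lines genes higher. USP22 stands at 3069 in shikonin and 8707 in control, and USP2 at 58.0 and 12.6. The counts are not corrected for length, so the slopes and not the heights compare genes.

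Of 14 genes placed in the group of DNA damage, replication and the cell cycle 6 were listed, against 50.2% of all genes tested. All 6 were lower, as were 30 of the 33 members. For USP9X and OTUD6B no such role is given here. USP37, which stabilises cyclin A and so favours S phase entry, had implied means of 90.5 in shikonin and 406 in control. Its fall was 4.48-fold (3.20 to 6.29; DESeq2 adjusted p = 4.78e-17), the second largest of the members in the authors' deposited table. USP24, a giant USP known to act on the damage sensor DDB2, and USP47, which stabilises DNA polymerase beta, fell 3.37-fold (2.51 to 4.51) and 3.28-fold (2.53 to 4.24) in the authors' deposited table. The USP24 implied means were 664 in shikonin and 2236 in control, and those of USP47 367 and 1202. Their DESeq2 adjusted p values were 3.75e-15 for USP24 and 2.29e-18 for USP47 in the authors' deposited table. USP9X, a giant X-linked enzyme that protects the survival factor MCL1, had implied means of 2081 in shikonin and 5898 in control. It fell 2.83-fold (2.21 to 3.63) in the authors' deposited table, and MCL1 fell 1.74-fold (1.48 to 2.04). USP28, which counters the FBXW7 ligase on MYC, and OTUD6B, linked to protein synthesis, fell 1.82-fold (1.37 to 2.43) and 1.91-fold (1.46 to 2.50) in the authors' deposited table. USP1, which acts on PCNA and FANCD2, was not listed, although its partner WDR48 was 1.71-fold lower in the authors' deposited table.

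Of 7 genes placed in the group of endosomes and receptor trafficking 6 were listed, against 50.2% of all genes tested. All 6 were lower, as were 30 of the 33 members. For USP12, USP46, USP20 and USP54 no role of their own there is given here. USP46 and USP12, close relatives that are active when bound to WDR48, differed in size. USP46 fell 2.96-fold (2.29 to 3.82; DESeq2 adjusted p = 8.03e-16) and USP12 1.65-fold (1.36 to 2.00) in the authors' deposited table. Implied means of USP46 were 183 in shikonin and 541 in control, and those of USP12 569 and 938. Their intervals do not overlap, though the difference itself was not tested. WDR20, the other cofactor of both, was 1.60-fold lower in the authors' deposited table. USP32, a membrane-bound enzyme that acts on RAB7, fell 2.46-fold (1.95 to 3.11) in the authors' deposited table. USP32 shares sequence with 3 annotated pseudogenes, of which USP32P2 was also in the authors' deposited table (log2 fold change -2.38), so its own value is uncertain. USP8, which acts on ubiquitinated EGFR at endosomes, USP20, known to act on HMG-CoA reductase, and USP54 fell 1.71-fold, 1.91-fold and 2.04-fold (USP54 interval 1.44 to 2.88) in the authors' deposited table. STAM2, an endosomal sorting partner of USP8, was 1.95-fold lower in the authors' deposited table, and HGS and STAM were not listed.

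Of the genes grouped with mitochondria and the endoplasmic reticulum 4 of 6 were listed, against 50.2% of all genes tested. All 4 were lower, each by less than 2-fold, and for USP38 no role of its own there is given here. USP38 and its sequence relative USP35, an enzyme known from mitochondrial quality control, fell 1.77-fold (1.41 to 2.23) and 1.67-fold (1.26 to 2.21) in the authors' deposited table. USP25 and the membrane-anchored USP19, both known from protein quality control at the endoplasmic reticulum, fell 1.65-fold (1.27 to 2.14) and 1.62-fold (1.37 to 1.93) in the authors' deposited table. The log2 fold change of USP25, -0.72, lay close to the -0.87 of its relative USP28, and their intervals overlap. USP30, which sits in the outer mitochondrial membrane and opposes parkin, was not listed.

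In the group of signalling enzymes 6 of 13 were listed, against 50.2% of all genes tested. All 6 were lower, and the group held the largest fall of all. USP34 stabilises axin in the WNT pathway and is among the longest of the USP genes, with 80 exons on chromosome 2 from 61187463 to 61470769. Its implied mean was 447 normalized counts in shikonin and 2112 in control. Its log2 fold change was -2.24 ± 0.18, a 4.72-fold fall (3.72 to 5.99) with a DESeq2 adjusted p of 1.42e-35 in the authors' deposited table. OTUD4, an enzyme of alkylation damage repair that also trims chains on the receptor adaptor MyD88, had implied means of 564 in shikonin and 2384 in control. It fell 4.23-fold (3.20 to 5.58; DESeq2 adjusted p = 9.80e-23) in the authors' deposited table and lies on chromosome 4 from 145110838 to 145180161. USP31, reported to restrain NF-kB activation, had implied means of 208 and 666 in shikonin and control and fell 3.21-fold (2.52 to 4.09; DESeq2 adjusted p = 7.20e-20) in the authors' deposited table. OTUD3 fell 2.57-fold (1.80 to 3.67) in the authors' deposited table. OTUD7B, also called Cezanne and selective for chains linked through lysine K11, fell 2.05-fold (1.64 to 2.55), and the tight junction protein USP53 fell 2.08-fold (1.55 to 2.78) in the authors' deposited table. The related USP4, USP11 and USP15, which act on TGF-beta signalling, were not listed, nor was TNFAIP3 (A20), while TRAF6, a ubiquitin ligase of NF-kB signalling, was 2.32-fold lower in the authors' deposited table.

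All 3 genes placed in the RNA and nucleolus group were listed, against 50.2% of all genes tested, 2 lower and 1 higher. For USP40 no such role is given here. USP39, a member without catalytic activity that belongs to the spliceosome, had implied means of 2671 in shikonin and 1598 in control. It rose 1.67-fold (1.42 to 1.97; DESeq2 adjusted p = 5.08e-09) in the authors' deposited table and lies on chromosome 2 from 85602856 to 85649282. USP36, a nucleolar enzyme that stabilises MYC, and USP40, a less studied enzyme, fell 1.90-fold (1.40 to 2.58) and 1.55-fold (1.24 to 1.93) in the authors' deposited table. USP42, the relative of USP36, had a log2 fold change of -1.46 against the -0.93 of USP36, with overlapping intervals.

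In the pairs of relatives compared here with both listed, both members fell. With 30 of 33 members lower, a shared direction says little about a pair. The pairs were USP25 and USP28, USP12 and USP46, USP36 and USP42, USP53 and USP54, USP35 and USP38, and USP22 and USP27X. DESeq2 adjusted p values in the authors' deposited table were 4.67e-04 for USP25 and 1.12e-04 for USP28, and 8.87e-05 for USP36 and 5.64e-10 for USP42. They were 3.36e-06 for USP53 and 1.35e-04 for USP54, 8.60e-04 for USP35 and 3.32e-06 for USP38 in the authors' deposited table. USP12 and USP9X had adjusted p values of 1.51e-06 and 1.91e-15 by DESeq2 in the authors' deposited table. The giant USP9X, USP24 and USP34 also fell together, with log2 fold changes of -1.50, -1.75 and -2.24 in the authors' deposited table. Of these the intervals of USP9X, -1.86 to -1.15, and USP34, -2.58 to -1.90, do not overlap, a difference that was not tested. For USP13, USP20, USP31 and OTUD7B the relative (USP5, USP33, USP43 and OTUD7A) was not listed, so no comparison can be made.

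Setting every log2 fold change lower by 0.39, which makes the implied totals of all listed genes equal in both groups, can only enlarge a fall, so it is no check of the 30 falls, and no shift the other way was tried. USP2 then stayed above the fold threshold at 1.81, but USP39 and UCHL3, at 0.35 and 0.33, did not, though both kept their sign.

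The members that fell have long transcripts. Their mature transcripts had a median of 5412 nt over the 33 members and 5840 nt over the 30 that fell, against 3294 nt over the 6920 listed protein-coding genes (principal transcript, GENCODE 29). Members had a median of 20 exons and 3165 nt of coding sequence, against 9 exons and 1360 nt for listed protein-coding genes. Genes of the families that were not listed were shorter, with a median of 3724 nt. UCHL3 has the shortest transcript of the members at 844 nt, and USP39 follows among the shortest at 2177 nt. Across the 33 members Spearman's rho between length and log2 fold change was -0.67, and it was -0.70 across listed protein-coding genes. These are descriptions, since genes share libraries and annotation.

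The members were also placed among listed protein-coding genes of like length, in 10 classes. In the longer 5 classes 28 of 29 members were lower (USP2 excepted), where 85.5% of all listed protein-coding genes were lower. In the shorter 5 classes 2 of 4 members were lower, USP10 and USP27X, where 13.8% of genes were. Both stand in the longest of these 5 classes, where 36.1% of genes were lower. The median member was at percentile 40.5 of its own length class by fold change, where 50 is the middle. Classes hold genes that fell and genes that rose. A low percentile therefore means a lower fold change than most of the class, which can be a smaller rise or a small fall. USP10 stood at 33.4 in a class with 36.1% of genes lower, so it was among the smaller falls there. When lengths came instead from transcripts with the longest coding sequence, the median was 40.9. Of the members 8 stood below percentile 25 of their class, 13 between 25 and 50, 7 between 50 and 75, and 5 above 75. The 8 include UCHL3 and the 13 include USP39, both of which rose. USP47 stood at percentile 4.77 and OTUD4 at 6.07, so their falls were large also among genes of like length. With its longest coding transcript, of 7396 nt in place of 4525 nt, USP47 stood at 20.1. USP34, the largest fall, stood at 15.5, and USP22 at 17.1. USP9X stood at 53.3 and USP24 at 38.4, near the middle of the longest class. USP8, USP40 and USP38 stood at 88.9, 85.1 and 79.6, having fallen less than most genes of their class. The length of USP8, 19026 nt, is that of its longest principal transcript and may not be the form these cells use. Among the members that rose, USP2 stood at percentile 93.8, while UCHL3 at 5.06 and USP39 at 34.7 rose less than most genes as short as they are. The part of length in the fall of these genes was not tested.

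**Figure D3:**
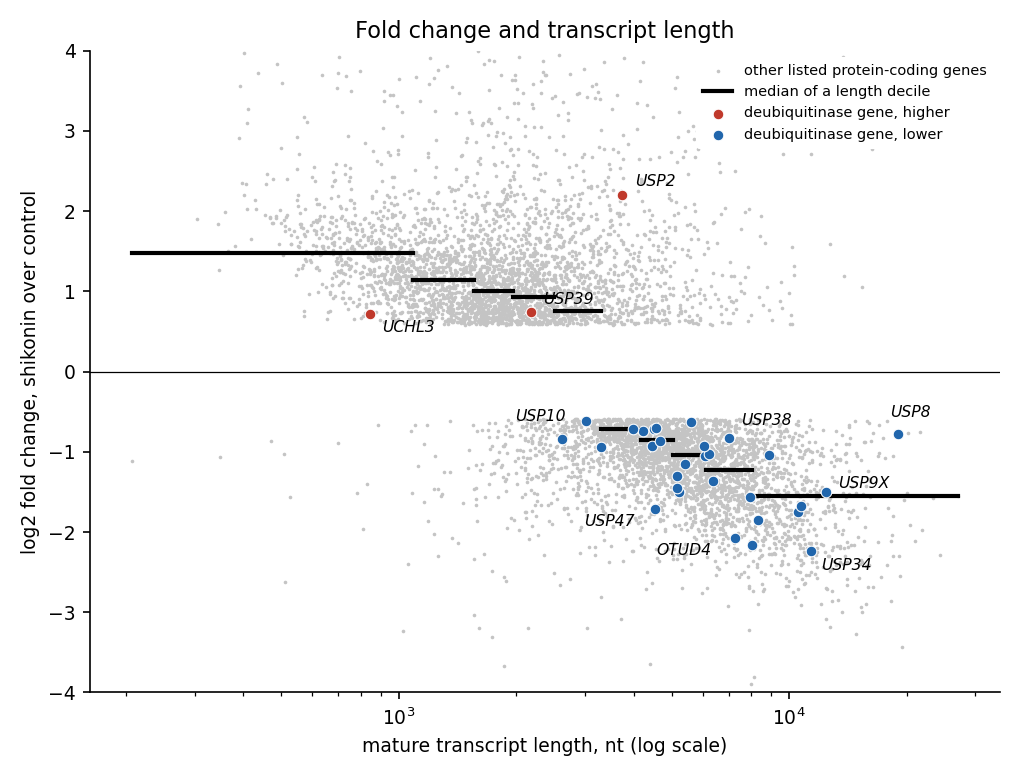
Log2 fold change, shikonin over control (y axis), against mature transcript length on a log axis (x axis) for listed protein-coding genes in grey and the deubiquitinase genes in blue (lower) and red (higher). Black bars are medians of 10 length classes and span the lengths of each; 175 of 6920 genes lie beyond the y axis limits of 4 in either direction. Most blue points lie at lengths where the class median is below 0, and USP2 lies at percentile 93.8 of its class.

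Compared per kilobase of transcript, the order of levels among members differs from that of the counts. On this scale UCHL3 was highest in shikonin, at an implied mean of 1380 normalized counts per kilobase against 836 in control, followed by USP39 at 1227 against 734. In control USP22 was highest, at 588 per kilobase in shikonin against 1668 in control. USP10 followed in shikonin at 381 against 584 in control, and USP9X stood at 168 against 476. USP2 was lowest in control, at 15.5 in shikonin against 3.37 in control, and USP37 lowest in shikonin, at 11.3 against 50.5. These orders have no spread over samples, because the file gives none.

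The deubiquitinases and related proteases of other families did not all follow the same direction. For these lists too, 50.2% of all genes tested were listed and 49.2% of listed genes were lower. How many genes of each list were tested is not known. In the list of other cysteine deubiquitinases, which also holds the SUMO protease USPL1, 8 of 23 were listed. Of these 5 were lower and 3 higher, USPL1 being 1 of the 3, with a median log2 fold change of -1.08. MINDY2, which prefers long K48 chains, fell 4.18-fold, and the p97 cofactor VCPIP1 and the linear chain enzyme OTULIN fell 2.39-fold and 2.27-fold in the authors' deposited table. The SUMO protease USPL1, the Josephin JOSD2 and OTUB1, which inhibits certain E2 enzymes, were 2.57-fold, 2.30-fold and 1.86-fold higher in the authors' deposited table. Of the JAMM/MPN domain proteins, which include metalloproteases and inactive relatives, 10 of 12 were listed, 7 higher and 3 lower, with a median of 0.67. The COP9 signalosome subunit COPS6 and the translation factor subunits EIF3F and EIF3H were 2.44-fold, 2.01-fold and 2.01-fold higher, and the H2A deubiquitinase MYSM1 and the splicing factor PRPF8 fell 2.76-fold and 2.62-fold in the authors' deposited table. PSMD14, the deubiquitinase of the proteasome lid, was 1.62-fold higher in the authors' deposited table. In the list of SENP and DESI proteases, enzymes of SUMO or NEDD8 kept apart here from USPL1, 5 of 9 were listed and all 5 were lower, SENP5 by 2.36-fold in the authors' deposited table. Of 24 binding partners 16 were listed, 13 lower and 3 higher, the higher ones being ENY2, INO80E and the proteasomal ubiquitin receptor ADRM1.

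Length differed with direction in these lists too. Median lengths were 7800 nt for the lower and 1729 nt for the higher genes in the list of other cysteine deubiquitinases, with USPL1 among the higher. For the JAMM/MPN proteins the medians were 7445 nt lower and 1670 nt higher, EIF3F being given 7540 nt by its principal transcript while it rose. The higher counts depended on the scaling: with equal implied totals 7 of the 13 higher genes in these lists were still above the fold threshold.

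**Figure D4:**
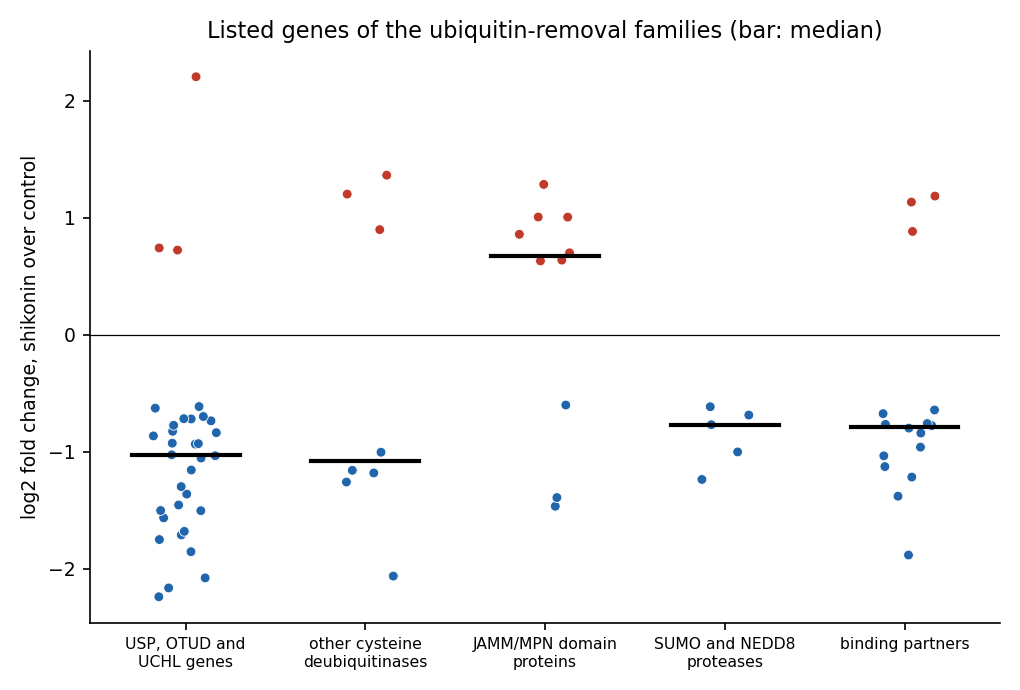
Log2 fold change, shikonin over control (y axis), of each listed gene in the USP, OTUD and UCHL group and in the 4 related lists (x axis); bars are medians. Points are spread sideways for sight only. The JAMM/MPN list is the one with its median above 0, at 0.67.

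Reads of overlapping genes limit some values. Of the 33 members 20 overlap an annotated gene on the opposite strand, and the sources used here do not say whether strand was kept in counting. Of those partners the listed ones were ABCE1, which overlaps OTUD4, and KCTD21, which overlaps USP35, with log2 fold changes of -0.68 and -0.59 in the authors' deposited table. Pseudogenes named after OTUD4, USP24, USP32, USP8 and USP12 could also take reads from these members.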

How the data were processed

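RNA of MDA-MB-231 cells was sequenced from 3 shikonin and 3 control libraries, for which the labels' protocols name a NEBNext Ultra kit. Tools in the submitters' processing notes were HISAT2 2.0.5, fastp and DESeq2, on hg38. For the read counter and its annotation, the sources used here give nothing. The deposited mean normalized count is a signal averaged over libraries by the authors. The deposited log2 fold change, its standard error, the Wald score, and the p-value with its adjusted form come from the authors, per the file headers, and no new test was made. Fold change signs fitted the direction column for 7150 of 7150 genes.

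Computed here, with Python 3.11.15 and pandas 2.3.3, were implied group means, normal 95% intervals, the number of genes tested (from adjusted p, rank and p), counts by direction, transcript lengths (GENCODE 29; 7142 genes matched by identifier) and motif counts. Of these, the number of genes tested and the implied means were checked on simulated data. The means were simulated with the equal weighting they assume, so that assumption was not checked. The planned tests of counts could not be run. All members are named. Full statistics went to the 8 largest falls and all rises, and related lists name up to 3 genes a direction; PSMD14, MDM4, MCL1, STAM2, WDR48, WDR20 and ATXN7L3 were added after their values were seen. Members and lists were chosen with earlier results of these data known.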

Additional observations from a re-analysis of the deposited data

How the results depend on the processing

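Counts at a fold of at least 2 were lower by construction: 1 member higher and 17 lower, and in the related lists 7 higher and 14 lower. An adjusted p below 0.001 left 3 members higher and 29 lower, and a mean of at least 100 normalized counts 2 and 29. With equal implied totals 1 member was higher and 30 were lower, where no fall could be lost by construction, 7 genes of the related lists were higher and 26 lower, and the members' median log2 fold change was -1.42 in place of -1.03. Genes that such a shift would add to the lower side are not held. USP39 and UCHL3 were the 2 of 33 members that dropped below the fold threshold, and 0 changed sign. Without the OTUD and UCHL rows the median was -0.98. The settings for the related lists were chosen after seeing the data. No paired analysis was possible because the table holds no per-sample values, and for the same reason no library could be left out and no other normalization or count filter run.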
